A study of Mus musculus with 22 samples.

Results

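The 42 genes described here encode proteins that a cell makes to divide: cyclins and CDK1, mitotic kinases, the spindle checkpoint, the kinetochore, mitotic motors and proteins of the spindle and the cleavage furrow. They were taken as a fixed list of gene symbols. No measured value was used as a rule of choice, but earlier results of these data were known. All 42 were among the 30170 symbols counted and among the 14520 that passed the filter on low counts. RNA was sequenced in C3H 10T1/2 cells, a mouse mesenchymal stem cell line that can become adipocytes. The labels give the DNMT3A genotype as WT, as W330R or, with both changes, as W330R-R181E, and the design text describes the mutants as expressed forms of DNMT3A1, the long isoform of this DNA methyltransferase. The W330R change lies in the PWWP domain, which binds methylated histone H3, and R181E lies in the N-terminal part that only the long isoform has. WT and W330R cells were taken undifferentiated and on days 2, 4 and 6 after the start of adipocyte differentiation, and W330R-R181E cells on days 2, 4 and 6. All differentiating cells, of every genotype, received the same adipocyte cocktail of isobutylmethylxanthine, dexamethasone, insulin and troglitazone, followed by insulin alone. Each of the 11 conditions had 2 libraries, 22 in all. The labels do not say whether the 2 libraries came from separate cultures, whether a line was a clone or what drives the mutant gene, so that p-values measure only the spread between these libraries. The columns of the 6 double-mutant libraries were named R181A where the labels say R181E, and the label's name is used here.

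As background, most of these genes are silent in resting cells and are switched on together late in the cell cycle. In resting cells the DREAM complex holds them off, and in cycling cells B-MYB and FOXM1, which use the same MuvB core, switch them on. MuvB complexes contact the CHR element (TTTGAA or TTCGAA) of their promoters, and NF-Y binds the CCAAT box. Fat cells form from mesenchymal precursors that leave the cell cycle.

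The promoters of the members show these motifs. RefSeq promoters on build GRCm38.p6 were matched for 34 members, and both strands of the 250 bases before the start site were searched. A CCAAT box was found in 26 of the 34 members (76.5%), against 33.8% of all 32851 promoters in the table. Each member was counted once, by its first listed promoter, whereas the shares of all promoters count every listed promoter. At least 2 CCAAT boxes were found in 19 members (55.9%), against 10.1%. A CHR element was found in 11 members (32.4%), against 17.1%, and both motifs together in 10 (29.4%), against 6.02%. The median distance to the start site was 97 bases for the CHR element and 69.5 bases for the CCAAT box. A match of these letters is a description of the sequence and not a measured binding site. The 120 bases nearest the start site are shown for 6 members that span the range of motifs, with matched letters in capitals (ATTGG and TTCAAA are matches on the other strand). Within these 120 bases, Top2a at chr11:99024190-99024309 (minus strand) holds 2 CHR elements and 3 CCAAT boxes, Ect2 at chr3:27153879-27153998 (minus strand) 1 and 2, and Kif11 at chr19:37376262-37376381 (plus strand) 1 and 1. Mki67 at chr7:135716380-135716499 (minus strand) holds 2 CHR elements and no CCAAT box, Ccnb2 at chr9:70421555-70421674 (minus strand) 3 CCAAT boxes and no CHR element, and Ndc80 at chr17:71526858-71526977 (minus strand) neither. Further up, within the 250 bases of the counts above, Mki67 also has 3 CCAAT boxes, at 183, 161 and 136 bases from the start site, and Ccnb2 a CHR element at 161 bases, so that both count as holding both motifs.
Top2a: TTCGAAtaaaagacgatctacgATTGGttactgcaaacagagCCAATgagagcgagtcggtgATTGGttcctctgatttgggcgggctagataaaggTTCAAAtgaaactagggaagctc
Ect2: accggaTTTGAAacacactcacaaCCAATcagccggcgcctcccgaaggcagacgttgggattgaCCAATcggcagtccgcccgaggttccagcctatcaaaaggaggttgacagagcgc
Kif11: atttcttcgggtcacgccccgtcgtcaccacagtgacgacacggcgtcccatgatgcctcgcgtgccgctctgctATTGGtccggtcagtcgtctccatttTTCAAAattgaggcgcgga
Mki67: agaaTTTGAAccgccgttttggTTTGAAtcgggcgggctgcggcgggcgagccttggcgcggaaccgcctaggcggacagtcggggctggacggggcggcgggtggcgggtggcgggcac
Ccnb2: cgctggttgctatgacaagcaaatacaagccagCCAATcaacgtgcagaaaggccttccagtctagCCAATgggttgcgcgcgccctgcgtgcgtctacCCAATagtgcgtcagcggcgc
Ndc80: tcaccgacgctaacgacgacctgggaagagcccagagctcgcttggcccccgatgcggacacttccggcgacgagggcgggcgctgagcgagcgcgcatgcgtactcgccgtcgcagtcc

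The depth ranged from 8859501 to 47453908 counts per library, with a median of 19355792. CPM, used below, is a gene's count per 1000000 counts of its library, with library totals scaled by TMM (edgeR's normalization), and the floor of 3 counts per library used below corresponds to 0.058 to 0.347 CPM. Dnmt3a had 316.5 to 346.5 CPM in undifferentiated cells and 68.5 to 321.8 later, and counts per symbol do not separate the cell's own gene from an introduced one. Of 8 stromal markers 7 were present in every library, with Vim at 1760 to 7670 CPM, and Thy1 was at 0 in 3 libraries with a median of 0.815 CPM. Their sum was 17460 to 21440 CPM in undifferentiated cells and 2908 to 14330 on days 2 to 6. The 6 macrophage markers summed to 4.41 to 6.06 and 4.22 to 17.9 CPM in the same order, with Cd68 in every library (2.14 to 16.1) and Emr1 at 0 in 14. The 5 endothelial markers summed to 10.4 to 24.2 and 1.18 to 15.2 CPM, with Tek up to 18.5 and Pecam1 up to 16 CPM, both in every library, and Cdh5 at 0 in 15. The 5 epithelial markers summed to 2.02 to 3.67 and 0.148 to 2.71 CPM, with Cdh1 up to 3.67 CPM and Epcam at 0 in all 22. The part of these cells in the results was not tested. The 4 undifferentiated libraries stood apart from the other 18 in more than stage. The names of their columns follow another pattern. In addition, 10 genes stood above 5 CPM in all 4 and had at most 3 counts in all 18, and 9 of these are predicted Gm gene models or ribosomal protein pseudogenes or copies. Rps6-ps4, for example, had 440.5 to 490.0 CPM in the undifferentiated libraries and 0 in all 18. In the opposite direction 16 genes were found, among them Cidec and Plin1 of the fat droplet, but also the imprinted gene Peg3 and the CDK inhibitors Cdkn2a and Cdkn2b. A difference in how the 2 sets of libraries were made or counted cannot be told apart from the step between undifferentiated cells and day 2, and that step cannot be given without those libraries. The comparisons among days 2, 4 and 6 use no level of these libraries, but their filter and estimate of spread came from all 22 libraries, and some counts of calls change without them, as given beside the results.

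The mean level of the 42 genes was highest in undifferentiated cells, lowest on day 2, and between these on days 4 and 6. On the log2 CPM scale the mean over the members was 5.94 and 5.97 in the WT undifferentiated libraries and 5.99 in both W330R ones. On day 2 it was 1.78 and 1.28 in WT, 1.24 and 1.12 in W330R, and 3.08 and 1.31 in W330R-R181E. On day 4 it was 2.93 and 2.22 in WT, 3.95 and 3.62 in W330R, and 3.52 and 2.99 in W330R-R181E. Every library of days 2 to 6 thus lay below every undifferentiated one. That also held for each of the 42 genes singly, and for 40 of them the lowest library was one of day 2. On day 6 the means were 4.09 and 3.10 in WT, 4.35 and 3.90 in W330R, and 4.21 and 3.88 in W330R-R181E, so that the 3 genotypes overlapped. The members took 0.349 to 0.367% of all counts in undifferentiated cells and 0.0208 to 0.0497% on day 2. This share leans on Top2a in some day 2 libraries. In replicate 2 of W330R it had 8302 counts and the next member, Cdk1, 376. In replicate 2 of W330R-R181E it had 5579 and the next, Kif4, 713. In such bulk samples, fewer dividing cells and less RNA of these genes per cell cannot be told apart. The pooled SD of the mean between libraries of a condition was 0.0128 in undifferentiated cells and 0.557 on days 2 to 6.

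**Figure D1:**
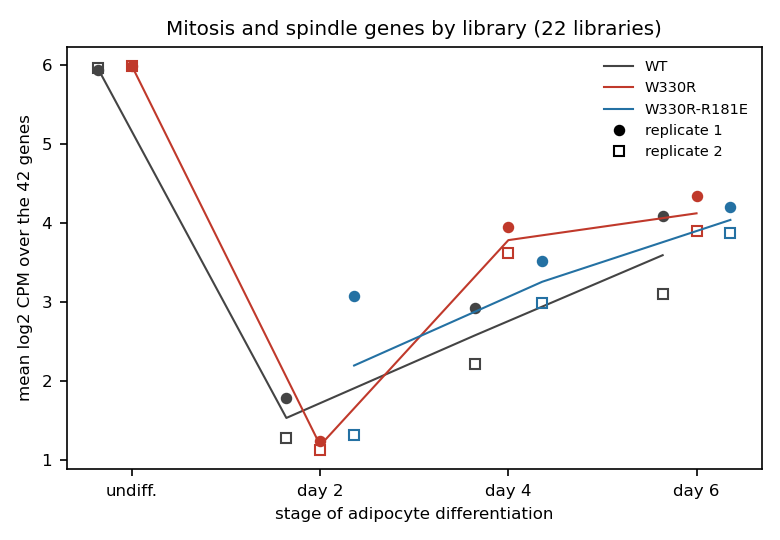
Mean log2 CPM over the 42 genes (vertical axis) in each of 22 libraries by stage (horizontal axis), with lines through the means of 2 libraries per genotype and stage. The undifferentiated libraries lie at 5.94 to 5.99, and the day 2 libraries at 1.12 to 3.08, with the first W330R-R181E library of day 2 the highest of these.

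The 2 libraries of a condition differed in the same direction for most members on days 2 to 6. Replicate 1 was the higher one for 30 to 42 of the 42 members in the 9 conditions of these days, and for 13 and 16 in undifferentiated WT and W330R. The median log2 ratio of replicate 1 to replicate 2 over the members was 0.192 to 1.75 in those 9 conditions, whereas over all genes it was -0.0127 to 0.0308. It was largest on day 2 in W330R-R181E, where replicate 1 stood at 3.08 and replicate 2 at 1.31. In the same pairs the median ratio over 8 adipocyte markers was below 0 in 8 of the 9 conditions, from -0.573 on day 6 in WT to -0.00797 on day 2 in W330R, and 0.234 on day 2 in W330R-R181E. The part of these differences in the results was not tested, and counts of calls and medians that 1 library moves are given without it beside the result.

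**Figure D2:**
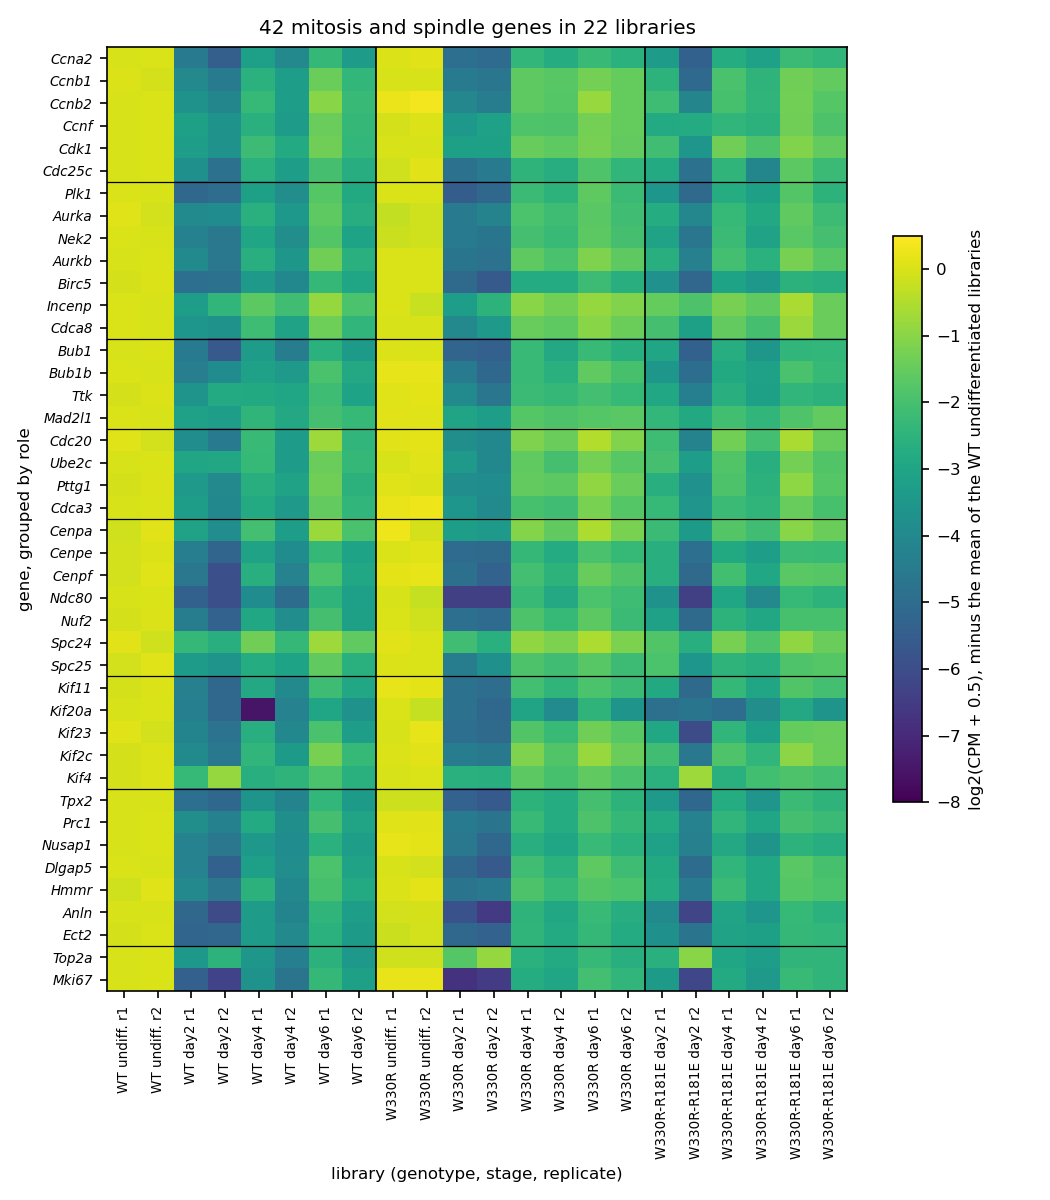
The 42 genes (rows, grouped by role) in 22 libraries (columns), coloured by log2(CPM + 0.5) minus the mean of the WT undifferentiated libraries. Day 2 columns are the darkest for most genes. Bright exceptions on day 2 are Top2a in W330R and Kif4 in replicate 2 of WT and of W330R-R181E. Kif20a is listed at 0 in 1 WT library of day 4.

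Day 2 was first compared with undifferentiated cells. In WT all 42 genes fell, by a median of 4.55 on the log2 scale, and 24.4% of all genes tested were called lower (50.9% in either direction) by edgeR's quasi-likelihood test at an adjusted p under 0.05. In W330R all 42 values were negative, with a median log2 change of -5.09, and 41 were called lower. Of all genes 23% were called lower there and 48.2% in either direction. The member not called was Top2a. Below, counts of genes higher or lower are counts of called genes, unless they are of libraries without overlap. The median of all genes was 0.06 in WT and 0.08 in W330R. Relative to undifferentiated cells, a median of 4.35% of the CPM was left on day 2 in WT, from 0.876% for Ndc80 to 37.7% for Kif4. In W330R it was 2.95%, from Ndc80, listed at 0, to 46.7% for Top2a.

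The cyclins, CDK1 and its switch fell by medians of 4.28 in WT and 4.87 in W330R. Cdk1, the kinase that drives entry into mitosis, had 131.6 and 134.8 CPM in undifferentiated WT and 131.1 and 130.4 in undifferentiated W330R. On day 2 it had 13.7 and 10.3 CPM in WT, 14.2 and 14.3 in W330R, and 30.2 and 10.99 in W330R-R181E. No day 2 library came near the undifferentiated ones, and the W330R pair lay just above the WT pair. The log2 change of Cdk1 was -3.48 (SE 0.43, adjusted p = 1.69e-05) in WT, the smallest of the 6 genes of this role, and -3.19 (SE 0.42, adjusted p = 3.84e-05) in W330R. Ccnb1, which encodes cyclin B1, the partner of CDK1 in mitosis, went from 82.9 and 77.0 CPM to 4.53 and 3.10 in WT, and from 79.2 and 79.5 to 2.94 and 2.70 in W330R. Its log2 change was -4.40 (SE 0.64, adjusted p = 6.1e-05) in WT and -4.81 (SE 0.65, adjusted p = 4.08e-05) in W330R. Of the exon sequence of Ccnb1, 23.4% of the 50-base words also occur in pseudogenes, so that its counts may hold reads of those. Ccna2 (cyclin A2), Ccnb2 (cyclin B2) and Ccnf (cyclin F) had log2 changes of -5.06, -4.16 and -3.66 in WT, all called. Cdc25c, the phosphatase that activates CDK1, had 12.2 to 14.5 CPM in undifferentiated cells, 0.529 and 0 in WT on day 2, and 0 and 0.114 in W330R, which is at the floor of 3 counts.

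The mitotic kinases and the chromosomal passenger complex fell by medians of 4.59 in WT and 5.25 in W330R. Plk1, the Polo kinase, had 63.2 to 64.1 CPM in undifferentiated cells. On day 2 Plk1 had 1.28 and 1.57 CPM in WT and 0.909 and 1.29 in W330R, and it fell by 5.46 and 5.84 on the log2 scale. Aurka and Aurkb (the Aurora kinases A and B), Nek2 (a centrosomal kinase) and Birc5 (survivin, a passenger protein) had called log2 changes of -4.10, -4.59, -5.32 and -5.08 in WT. The change was smaller for Incenp, the scaffold of the passenger complex. Incenp had 49.9 and 48.0 CPM in undifferentiated WT and 49.6 and 41.6 in W330R, against 4.76 and 8.80 on day 2 in WT and 4.76 and 8.30 in W330R. Its log2 change was -2.83 (SE 0.41, adjusted p = 6.1e-05) in WT and -2.80 (SE 0.41, adjusted p = 8.06e-05) in W330R.

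Mad2l1, of the spindle checkpoint, encodes the MAD2 inhibitor of CDC20. It had 66.4 to 72.8 CPM in the 4 undifferentiated libraries and 6.54 to 7.70 in the 4 day 2 libraries of WT and W330R. It fell by 3.29 (SE 0.21, adjusted p = 6.28e-08) in WT and by 3.33 (SE 0.21, adjusted p = 9.91e-08) in W330R. The checkpoint kinases Bub1 and Ttk and the kinase-like Bub1b fell as well, with log2 changes of -5.40, -3.33 and -4.24 in WT and -5.83, -4.89 and -5.24 in W330R. Of the anaphase genes, Cdc20, the activator of the anaphase-promoting complex, had 61.2 to 71.7 CPM in undifferentiated cells and 2.36 to 4.12 in the 4 day 2 libraries of WT and W330R. The log2 change of Cdc20 was -4.35 in WT and -4.22 in W330R, and Ube2c (its ubiquitin-conjugating enzyme), Pttg1 (securin) and Cdca3 fell too, with values of -3.03, -4.14 and -3.83 in WT. Ube2c shares 22.8% of its exon length with Tnnc2 on the other strand, and no source used here says whether the counting used strand.

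The centromere and kinetochore genes fell by medians of 4.99 in WT and 5.36 in W330R, and Ndc80 fell the most of all 42 members in WT. Ndc80, which encodes the microtubule-binding subunit of the outer kinetochore, had 40.9 and 41.9 CPM in undifferentiated WT and 0.529 and 0.197 on day 2. In W330R it had 40.9 and 34.7 CPM before and 0 in both day 2 libraries. The log2 change of Ndc80 was -6.91 (SE 1.15, adjusted p = 0.000261) in WT, and in W330R the log2 ratio against a floor of 3 counts per library was -8.1 or lower. Its partners Nuf2, Spc24 and Spc25 also fell, with log2 changes of -5.24, -2.82 and -3.69 in WT. Cenpf, a kinetochore protein made in G2, had 86.5 and 97.9 CPM in undifferentiated WT and 101.9 and 104.9 in W330R, against 3.25 and 1.03 on day 2 in WT and 2.67 and 1.83 in W330R. The log2 change of Cenpf was -5.50 in WT and -5.53 in W330R, and those of Cenpe, a kinetochore motor, and Cenpa, the centromeric histone, were -4.99 and -3.73 in WT.

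The spindle assembly and cytokinesis genes fell by medians of 5.00 in WT and 5.47 in W330R. Tpx2, which activates Aurora A on spindle microtubules, went from 212.5 and 212.8 CPM to 6.64 and 5.61 in WT and from 191.7 and 192.8 to 4.81 and 3.88 in W330R. Anln, which encodes the furrow protein anillin, went from 229.3 CPM in both libraries to 5.74 and 2.95 in WT and from 219.1 and 223.7 to 3.42 and 1.94 in W330R. The day 2 libraries of both genotypes were low for both genes. The log2 change of Tpx2 was -5.12 in WT and -5.47 in W330R, and that of Anln was -5.75 and -6.39. Ect2, the activator of RhoA at the furrow, fell by 5.64 in WT and 5.54 in W330R. The microtubule bundler Prc1, the spindle proteins Nusap1 and Dlgap5 and the hyaluronan receptor Hmmr had log2 changes of -4.11, -4.63, -5.004 and -4.51 in WT.

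The kinesins and the chromosome proteins held the members with the smallest falls, Kif4 in WT and Top2a in W330R. In the other genotype each kept a share near those of Incenp and Spc24 (Kif4 15.2% in W330R, Top2a 13.3% in WT). Of the kinesins, Kif11 (the motor that separates the poles), Kif23 and Kif2c fell in WT with log2 changes of -5.08, -5.04 and -4.65. Kif4, a chromosome-bound motor, had 58.3 to 61.7 CPM in undifferentiated cells and 11.7 and 33.6 on day 2 in WT, 9.41 and 8.98 in W330R, and 9.69 and 35.3 in W330R-R181E. Replicate 2 of WT and of W330R-R181E thus lay far above the other 4 libraries of day 2. Kif4 had the smallest fall of all members in WT, -1.40 (SE 0.49, adjusted p = 0.0281), against -2.72 (SE 0.52, adjusted p = 0.000688) in W330R. Its exons overlap Pdzd11 on the other strand over 15.1% of their length, and Kif20a overlaps Cdc23 over 29.3%. Mki67, which encodes the proliferation antigen Ki-67, had 387.3 and 396.5 CPM in undifferentiated WT and 453.8 and 454.8 in W330R. On day 2 Mki67 had 8.91 and 4.48 CPM in WT, 3.15 and 3.85 in W330R, and 37.1 and 4.90 in W330R-R181E. Its log2 change was -5.89 (SE 0.75, adjusted p = 2.02e-05) in WT and -7.01 (SE 0.79, adjusted p = 9.52e-06) in W330R.

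Top2a, topoisomerase II alpha, which untangles sister chromosomes, did not follow Mki67. Top2a had 517.7 to 565.9 CPM in undifferentiated cells, and on day 2 it had 50.7 and 99.5 in WT, 168.9 and 316.0 in W330R, and 91.1 and 276.3 in W330R-R181E. On day 2 replicate 2 was the higher library for Top2a in all 3 genotypes, whereas replicate 1 was the higher one for 30 to 38 of the 42 members. Top2a fell by 2.90 in WT (SE 0.50, adjusted p = 0.000257), and its log2 change in W330R, -1.10 (SE 0.47, adjusted p = 0.0664), did not pass. On days 4 and 6 the 12 libraries had 27.5 to 112.2 CPM of Top2a, below both W330R libraries of day 2.

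**Figure D3:**
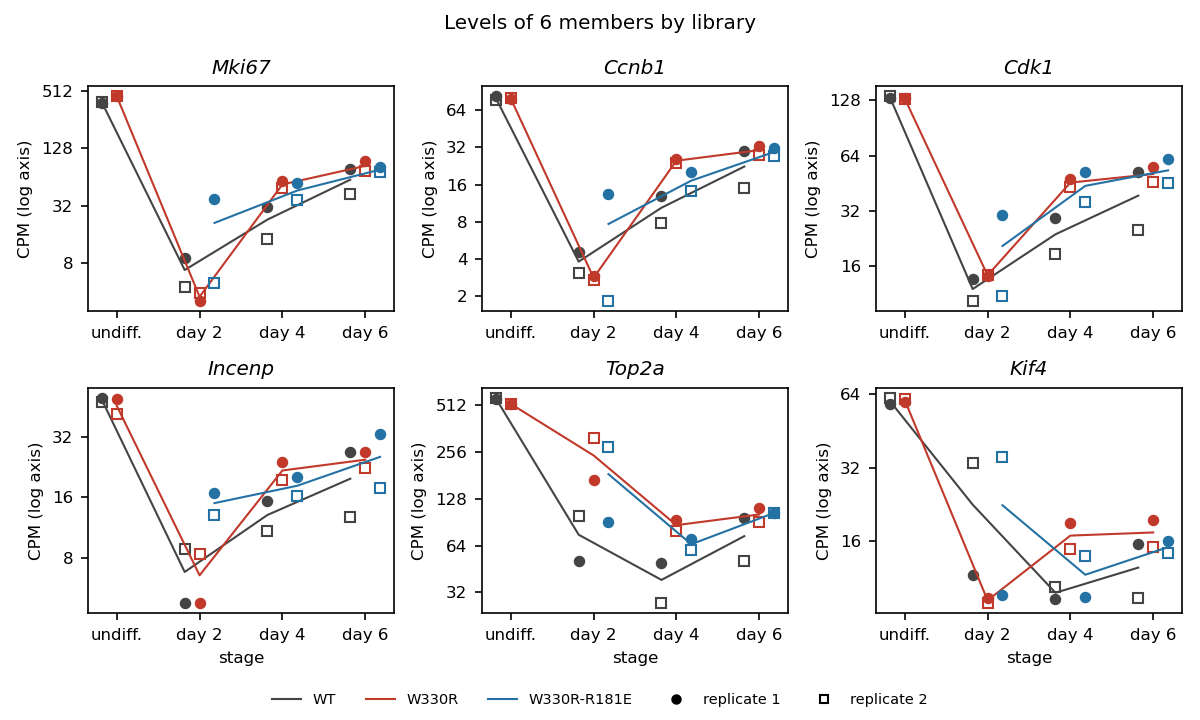
CPM (log axis) of Mki67, Ccnb1, Cdk1, Incenp, Top2a and Kif4 in 22 libraries by stage, with lines through the means of 2 libraries. In each genotype the means of Mki67, Ccnb1 and Cdk1 are lowest on day 2 and higher on days 4 and 6. Single libraries can overlap, as for Mki67 on days 2 and 4 in W330R-R181E. Top2a stays at 50.7 to 316.0 CPM on day 2, and Kif4 reaches 33.6 and 35.3 CPM in 2 of the day 2 libraries.

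Other gene lists were set beside the members. All 36 other mitosis genes fell on day 2 in WT (median log2 change -4.37) and in W330R (-4.69). Ckap2l, a spindle protein, fell by 5.71 and 6.53, and the kinase gene Melk by 5.43 in WT. All 20 DNA replication genes fell in WT and 19 in W330R, with smaller medians (-2.42 and -2.36), and the helicase gene Mcm5 fell by 5.33 in WT. Of 20 genes of the constitutive division machinery, such as subunits of the anaphase-promoting complex and cohesin factors, 11 were lower and 2 higher in WT (median -0.40), and 10 lower and 3 higher in W330R (-0.37). Of 19 regulators of this programme, 9 were lower and 1 higher in WT and 10 were lower in W330R. E2f8, an E2F repressor, fell by 4.45 and 5.47, Foxm1 by 3.85 and 3.87 and Mybl2 (B-MYB) by 2.54 in WT. Of the G1 cyclins and their kinases 6 of 8 were lower and 1 higher in both genotypes. Ccnd1 (cyclin D1) fell by 3.98 and 2.53, and Ccnd3 (cyclin D3) had the largest positive values, 0.52 and 1.08. Of 6 CDK inhibitors tested 3 were higher in WT and 4 in W330R, and these included Cdkn2a and Cdkn2b, which are among the genes at or near 0 in the undifferentiated libraries only. Of 8 adipocyte markers, 7 were higher in both genotypes, and of 8 stromal markers 6 were lower and 2 higher.

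The days after day 2 were then compared within each genotype. In W330R 37 of the 42 genes were called higher on day 4 than on day 2, with a median log2 change of 2.76 and 41 positive values. Of all genes 7.37% were called higher there and 12.4% in either direction. In WT 3 genes were called higher (6.62% of all genes called higher, 10.8% in either direction), with a median of 1.30 and 39 positive values. In W330R-R181E no gene was called (6.38% of all genes higher, 10.7% in either direction), with a median of 0.92. Of the members, 26 had an unadjusted p under 0.05 in WT and 11 in W330R-R181E, and DESeq2 called 12 and 7. Shares of all genes called by DESeq2 and under the other alternatives below are not given here. Member counts under these settings are thus not set against all genes.

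In W330R, Mki67 went from 3.15 and 3.85 CPM on day 2 to 58.0 and 48.8 on day 4, a log2 change of 3.92 (SE 0.70, adjusted p = 0.00354). Ccnb1 went from 2.94 and 2.70 CPM to 25.9 and 24.0 (3.14, SE 0.61, adjusted p = 0.00545), and Cdk1 from 14.2 and 14.3 to 47.9 and 43.4 (1.68, SE 0.40, adjusted p = 0.0162). For all 3 genes both day 4 libraries lay above both day 2 libraries. Ndc80, at 0 in both day 2 libraries, had 8.27 and 5.26 CPM on day 4, a log2 ratio of at least 5.6 over the floor of 3 counts. Anln rose by 3.75, Tpx2 by 2.98, Cenpf by 3.06, Cdc20 by 2.79, Incenp by 1.72 and Mad2l1 by 1.39. The 5 genes that did not pass were Top2a (-1.49, adjusted p = 0.0544), Kif4 (0.88, adjusted p = 0.27), Kif20a (1.74, adjusted p = 0.182), Spc24 (adjusted p = 0.0505) and Cdc25c (adjusted p = 0.0554, at the floor on day 2).

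In WT, Anln went from 5.74 and 2.95 CPM on day 2 to 22.2 and 12.3 on day 4 (2.01, SE 0.60, adjusted p = 0.0438). The other genes called higher were Ect2 (1.90, SE 0.39, adjusted p = 0.00672) and Plk1 (1.89, SE 0.54, adjusted p = 0.0366). Mki67 had 31.2 and 14.4 CPM on day 4, above both day 2 libraries, with a log2 change of 1.78 (SE 0.66, adjusted p = 0.0988). Ccnb1 had 12.99 and 7.80 CPM (log2 change 1.46, adjusted p = 0.14) and Cdk1 29.2 and 18.5 (0.99, adjusted p = 0.138). Kif20a, a kinesin of the midzone, was listed at 0 in 1 of these libraries and at 4.36 CPM in the other. In W330R-R181E, Mki67 had 37.1 and 4.90 CPM on day 2 and 55.4 and 36.7 on day 4, so that the days overlapped.

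These counts, and the medians of WT and W330R-R181E, depended on single libraries. In W330R the 37 became 16 without replicate 1 of day 2 and 20 without replicate 2. In WT the 3 became 0 without replicate 2 of day 2 or replicate 1 of day 4, 1 without any 1 of the 4 undifferentiated libraries, and 13 and 14 without replicate 1 and 2 of day 2 in W330R-R181E. In W330R-R181E the 0 became 30 without replicate 1 of day 2, and 1 without any 1 of the WT libraries of days 4 and 6. The median became 0.74 in WT without replicate 1 of day 4, and 2.14 and 0.26 in W330R-R181E without replicate 1 and 2 of day 2. With only the conditions compared in the model the WT count was 0, with only days 2 to 6 it was 1, and without the filter the counts were 7 in WT and 4 in W330R-R181E. With the replicate number added to the model as a block they were 14 and 12, though the labels do not say that these numbers pair the libraries. The change from day 2 to day 4 was compared between genotypes as an interaction in the same model. It was larger in W330R than in WT for 41 of the 42 members (median log2 difference 1.56), and 16 had an unadjusted p under 0.05, but none passed the adjustment, as none of all genes did (0%), and DESeq2 called 0. It was smaller in W330R-R181E than in W330R for 42 of 42 (median -1.82, 31 with an unadjusted p under 0.05), and again none passed (0% of all genes). DESeq2 called 1 there, and without replicate 2 of day 2 in W330R-R181E 2 were called. The median was -0.67 and -2.36 without replicate 1 and 2 of that condition.

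From day 4 to day 6 no member was called in any genotype. The median log2 change was 0.95 in WT (16 members with an unadjusted p under 0.05), 0.38 in W330R (0 such members) and 0.76 in W330R-R181E (4 such members), and DESeq2 called 1, 0 and 0. The WT median was 1.504 without replicate 1 of day 4 and 0.41 without replicate 1 of day 6. Of all genes, 0.324%, 0% and 0.0207% were called. Over the whole span from day 2 to day 6, 35 members were called higher in WT (median 2.30), where 14.8% of all genes were called higher and 26.6% in either direction. In W330R 39 were called higher (median 3.16; 13.6% of all genes higher, 25% in either direction). In W330R-R181E 24 were called higher (median 1.77; 12.9% of all genes higher, 23.2% in either direction). Top2a and Kif4 were not called in any of the 3 genotypes, with log2 changes of -0.03 and -0.86 in WT and -1.26 and 0.92 in W330R. Ndc80 rose by 4.04 in WT (SE 1.11, adjusted p = 0.0165), from 0.529 and 0.197 CPM to 7.26 and 4.08. Mki67 rose by 3.19 in WT, 4.57 in W330R and 1.89 in W330R-R181E, and Anln by 2.96, 3.96 and 2.35. The WT count of 35 became 9 without replicate 2 of day 2 or replicate 1 of day 6, and 16 with only these conditions in the model, and the median was 1.69 without replicate 1 of day 6. The W330R-R181E count of 24 became 39 without replicate 1 of day 2, 2 without replicate 2 of day 2 and 4 without replicate 1 of day 6. It was 0 with only these conditions in the model and 12 with only days 2 to 6, and the median was 2.85 and 1.02 without replicate 1 and 2 of day 2. The change from day 2 to day 6 did not differ between genotypes for any member after adjustment. W330R minus WT had a median of 0.87 with 4 unadjusted p under 0.05 (0.0895% of all genes called, DESeq2 0 members), and W330R-R181E minus W330R -1.43 with 13 (0%, DESeq2 1 member). The first median was 1.42 without replicate 1 of day 6 in WT, and the second -0.33 and -2.07 without replicate 1 and 2 of day 2 in W330R-R181E.

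On day 6 the members were still below their undifferentiated level. In WT 40 were called lower (median log2 change -2.38; 23.8% of all genes lower, 49.3% in either direction), and in W330R 32 (median -1.87; 18.4% lower, 38.5% in either direction). The median member had 19.2% of its undifferentiated CPM in WT and 27.4% in W330R, after 10.5% and 20.8% on day 4. Kif20a was the lowest on both days in both genotypes, with 13.8% in W330R on day 6. Kif20a had 11 and 6.71 CPM on day 6 in WT against 89.0 and 92.4 before (-3.36, SE 0.80, adjusted p = 0.00335), and 16.1 and 7.02 in W330R against 91.1 and 76.9 (-2.85, SE 0.78, adjusted p = 0.0106). Incenp kept 53.9% in W330R and its change there, -0.89, was not called. The W330R count of 32 became 14 without replicate 2 of day 6, and the WT median became -2.95 without replicate 1 of day 6. As for day 2, the undifferentiated libraries form a set of their own.

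**Figure D4:**
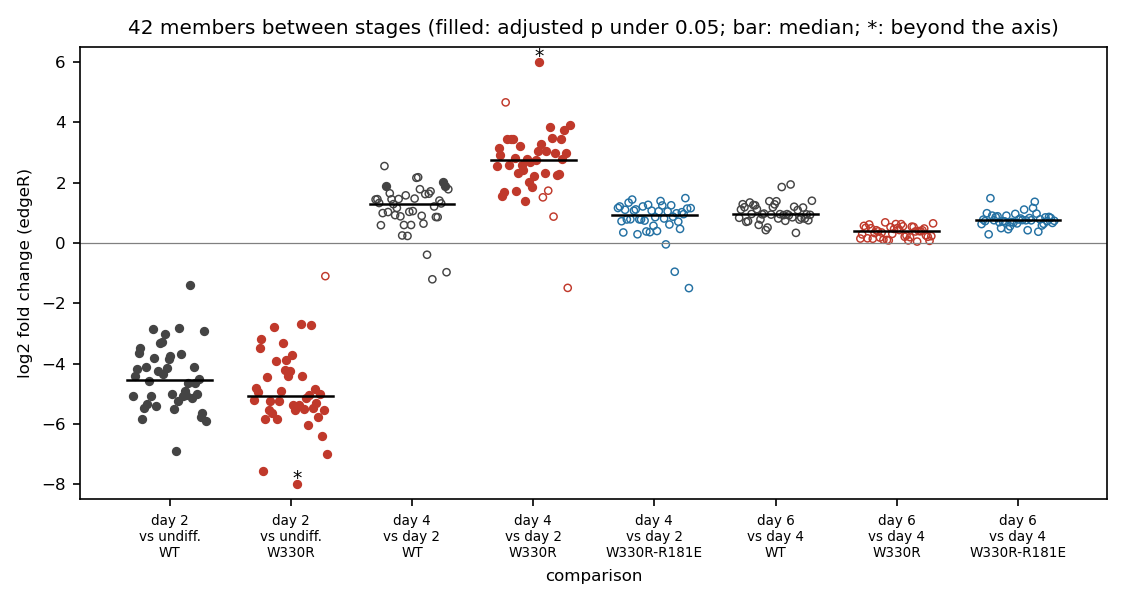
The edgeR log2 fold change of each of the 42 genes (vertical axis) in 8 comparisons of stages (horizontal axis), with filled points for adjusted p under 0.05, open points otherwise and a bar at the median. Medians run from -4.55 and -5.09 (day 2 against undifferentiated) to 2.76 (day 4 against day 2 in W330R), and the starred points are Ndc80, which is at 0 in W330R on day 2, so that its fitted value is no measure of size.

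Other lists on the way from day 2 to day 4 in W330R were read the same way. Of the 36 other mitosis genes 30 were called higher (median 2.39), with Espl1, the protease separase, at 4.19. Of the 20 replication genes 9 were higher and 1 lower (median 0.85), and of the 20 constitutive genes 1 was higher (0.03). Of the 19 regulators 5 were higher and 1 lower, with E2f8 at 3.07, Foxm1 at 1.93 and Mybl2 at 1.09. None of the 6 CDK inhibitors was called. In WT 4 of the 36 other mitosis genes were higher (median 0.93), with Melk at 2.25, and 1 of the 20 replication genes was higher and 1 lower.

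W330R was then compared with WT. Over the 4 stages 2 members were higher in W330R and none lower (median log2 difference 0.32), where 11.2% of all genes were called higher and 22.9% in either direction. The called members were Top2a (0.80, SE 0.23, adjusted p = 0.024) and Mad2l1 (0.37, SE 0.10, adjusted p = 0.0144). With the replicate number as a block 8 were called. The count of 2 became 5 without replicate 1 of day 6 in WT, and 1 without either undifferentiated WT library, replicate 2 of day 6 in WT, replicate 2 of day 2 in W330R or replicate 1 of day 6 in W330R. In undifferentiated cells no member was called (median 0.04, 1.75% of all genes called), 0 had an unadjusted p under 0.05 and DESeq2 called 0. With only these 4 libraries in the model 8 were called, and the share of all genes called in that model is not given here. The 2 libraries of each genotype did not overlap for 12 members higher and 7 lower in W330R, against 30.1% and 32.3% of all genes.

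On day 4 all 42 members had a positive log2 difference between W330R and WT, from 0.38 for Cdc25c to 2.11 for Ndc80, with a median of 1.10. Both W330R libraries lay above both WT libraries for 41 of the 42, against 28% of all genes. Mki67 had 58.0 and 48.8 CPM in W330R and 31.2 and 14.4 in WT, with a log2 difference of 1.23 (SE 0.62, adjusted p = 0.249). Ccnb1 had 25.9 and 24.0 CPM against 12.99 and 7.80 (1.27, SE 0.56, adjusted p = 0.19), and Cdk1 47.9 and 43.4 against 29.2 and 18.5 (0.94, SE 0.40, adjusted p = 0.171). None of these differences passed. Mad2l1, with 19.8 and 17.9 CPM against 12.1 and 8.72, was the 1 member called (0.86, SE 0.20, adjusted p = 0.0237), where 2.73% of all genes were called higher and 6.14% in either direction. Of the members 23 had an unadjusted p under 0.05. DESeq2 called 5, edgeR 4 without the filter, and 0 with only the conditions compared or only days 2 to 6 in the model. The shares of all genes called in these models are not given here. With the replicate number as a block 17 were called, though the labels do not say that these numbers pair the libraries. The median was 1.61 without replicate 1 of day 4 in WT. The count of 1 became 0 without either W330R library of day 4, 3 without replicate 1 of day 4 in WT, 2 without either day 6 library of WT or of W330R-R181E, and 6 without either day 2 library of W330R-R181E. On the same day 3 of 8 adipocyte markers were lower in W330R (median -1.37) and 1 of 8 stromal markers was higher (0.71), and the summed adipocyte markers stood at 2140 and 2576 CPM in W330R and 5297 and 6941 in WT. The part of this difference in the members' levels was not tested.

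On days 2 and 6 no member was called between W330R and WT, and 3.06% and 7.54% of all genes were. On day 2 the median log2 difference was -0.38, and 14 members were lower and 2 higher without overlap, against 20.6% and 22.3% of all genes. Of the members 3 had an unadjusted p under 0.05, DESeq2 called 3, and 1 was called without either day 2 library of W330R-R181E, without the filter or with library totals only. Top2a had the largest positive value, 1.69 (SE 0.48, adjusted p = 0.0723), with both W330R libraries above both WT libraries. On day 6 the median was 0.46, 7 members were higher without overlap against 30.9% of all genes, 1 had an unadjusted p under 0.05 and DESeq2 called 0. The day 6 median was 0.99 without replicate 1 of day 6 in WT. The difference between the genotypes on day 6 minus that in undifferentiated cells was called for 0 members (0 with an unadjusted p under 0.05, DESeq2 0), against 3.88% of all genes.

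W330R-R181E was compared with W330R to see what the second change adds. Over days 2 to 6 no member was called (median log2 difference 0.27, 1 with an unadjusted p under 0.05, DESeq2 1), against 17.2% of all genes, and without replicate 1 or 2 of day 2 in W330R-R181E 1 and 5 were called. On day 2 the median was 1.35, 28 members had an unadjusted p under 0.05 and DESeq2 called 12, but none was called by edgeR (2.67% of all genes). Mki67 was highest in replicate 1 of W330R-R181E (37.1 CPM), while replicate 2 (4.90) lay near the W330R libraries (3.15 and 3.85), with a log2 difference of 2.55 (SE 0.68, adjusted p = 0.0618). For 19 members both libraries of W330R-R181E were above both of W330R, against 17.5% of all genes. Without replicate 2 of W330R-R181E 22 members were called with a median of 1.92, and without replicate 1 there was 1, with a median of 0.18. Without the filter 7 were called, and with the replicate number as a block 9. On day 4 the median was negative, -0.53, and 24 members were lower without overlap (23.7% of all genes). None was called on that day (1.91% of all genes), with 1 unadjusted p under 0.05 and DESeq2 at 0. On day 6 the median was -0.06, 2 members were lower without overlap (24% of all genes) and none was called (1.5% of all genes, 0 with an unadjusted p under 0.05, DESeq2 0).

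Against WT, W330R-R181E had 3 members higher over days 2 to 6 and none lower (median 0.69), where 4.46% of all genes were called higher and 9.57% in either direction. Cdca8, which encodes borealin of the passenger complex, had 9.44 and 3.91 CPM on day 2, 13.2 and 9.48 on day 4, and 22.9 and 14.2 on day 6 in W330R-R181E. In WT, Cdca8 had 2.94 and 2.71, 8.59 and 4.14, and 14.8 and 6.999 CPM on the same days. The libraries of the genotypes did not overlap on days 2 and 4 and overlapped on day 6, and the log2 difference of Cdca8 was 0.95 (SE 0.26, adjusted p = 0.0351). The other 2 were Ect2 (0.80, SE 0.21, adjusted p = 0.0275) and Mad2l1 (0.51, SE 0.11, adjusted p = 0.0149). The count of 3 became 30 without replicate 2 of day 2 in W330R-R181E, 11 without replicate 1 of day 6 in WT, 8 without replicate 1 of day 4 in WT, 1 without replicate 2 of day 2 in WT or replicate 1 of day 6 in W330R-R181E, and 0 without replicate 2 of day 6 in WT or replicate 1 of day 4 in W330R-R181E. DESeq2 called 11, edgeR 11 without the filter, 0 with only the conditions compared, 1 with only days 2 to 6 and 17 with the replicate number as a block. On single days no member was called against WT (DESeq2 0 each), with medians of 0.99, 0.64 and 0.41 on days 2, 4 and 6, where 0%, 0% and 0.875% of all genes were, and 11, 2 and 1 members had an unadjusted p under 0.05. Without replicate 2 of day 2 in W330R-R181E 2 were called on day 2 with a median of 1.72, and without replicate 1 the median turned to -0.21. The day 6 median was 0.96 without replicate 1 of day 6 in WT. Without overlap 5, 19 and 10 members were higher, against 15%, 20.4% and 20.4% of all genes. Both comparisons of the double mutant share its libraries, and those of W330R share the W330R libraries.

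**Figure D5:**
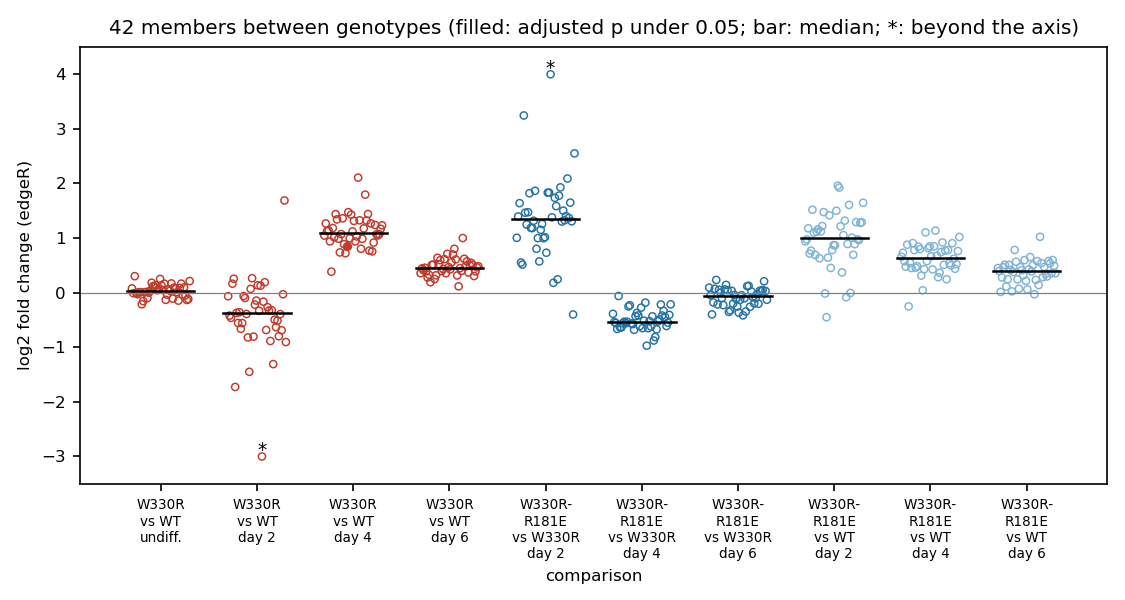
The edgeR log2 fold change of each of the 42 genes (vertical axis) in 10 comparisons of genotypes within a stage (horizontal axis), with filled points for adjusted p under 0.05, open points otherwise and a bar at the median. The median of W330R against WT is -0.38 on day 2 and 1.10 on day 4, only Mad2l1 on day 4 is filled, and the starred points are Ndc80, at 0 in W330R on day 2.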

How the data were processed

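Total RNA from 22 samples of C3H 10T1/2 cells was sequenced by the authors with a NEBNext Ultra II kit. Whole raw counts per gene symbol were deposited by the authors, without normalization. The processing notes in the labels name kallisto, DESeq2 1.40 and GRCm39. The release of the annotation and the use of strand are not given in the sources used here, and the article supplied with the series does not describe these libraries. Totals ran from 8859501 to 47453908 counts, and CPM limits cover counting error only.

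From the counts, filterByExpr (edgeR 4.0.16, run in R 4.3.3) kept 14520 genes at a minimum count of 10 and a minimum total of 15. With TMM scaling, 1 quasi-likelihood model with a mean for each of 11 conditions was fitted to all 22 libraries, with 26 comparisons and 5 tests of differences between changes, 7 of these 31 added after seeing the data. Adjusted p-values (Benjamini-Hochberg) cover all 14520 genes, with a threshold of 0.05. Means of log2 CPM used a prior count of 2. Alternatives were RLE scaling, library totals only, no filter, DESeq2 1.42.0, only the conditions compared, only days 2 to 6, a replicate block and leaving out each library. The scripts were tested on simulated data.

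The members and lists were chosen with earlier results of these data known. Members named in full are Mki67, Top2a, Cdk1 and Ccnb1, the member with the highest mean level of each role, and the called member with the largest change of each comparison. Others are named with single values to complete each role. Exon overlaps and shared words were taken from the GRCm38 annotation at hand.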

Additional observations from a re-analysis of the deposited data

Results flagged for a closer look

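The difference between W330R and WT in the mean log2 CPM of the 42 genes pointed in opposite ways at different stages. Every W330R library lay below every WT library on day 2 (a difference of -0.347) and above every WT library on day 4 (1.21). In undifferentiated cells every W330R library also lay above (0.034). For 14 members the libraries did not overlap on both days, lower on day 2 and higher on day 4. These 14 are all the members lower on day 2 without overlap, as 41 were higher on day 4. For 4 members they were lower on day 2 and higher in undifferentiated cells. The share of all genes with either pattern was not counted. Singly, 20.6% of all genes were lower on day 2, 28% higher on day 4 and 30.1% higher in undifferentiated cells without overlap. The change from day 2 to day 4 was tested gene by gene against that of WT, and no member passed the adjustment. The difference between undifferentiated cells and day 2 was not tested. With 2 libraries in each group, the SD on day 2 was 0.353 in WT and 0.082 in W330R. The difference of -0.347 is thus no larger than the SD of the WT pair. The pooled SD of 0.557 on days 2 to 6 also holds conditions outside this comparison.

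W330R-R181E against W330R gave the reverse order, with every library higher on day 2 (1.012) and every library lower on day 4 (-0.528). The same W330R libraries stand on opposite sides of this comparison and the one above, so that the reverse order is no independent result. For 10 members the libraries did not overlap on either day, and the share of all genes with this pattern was not counted. Singly, 17.5% of all genes were higher on day 2 and 23.7% lower on day 4 without overlap. The change from day 2 to day 4 was tested gene by gene here as well, and no member passed the adjustment. The day 2 value rests on a pair of W330R-R181E libraries at 3.08 and 1.31, of which the lower is close to the W330R libraries at 1.24 and 1.12.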

How the results depend on the processing

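The fall from undifferentiated cells to day 2 kept 41 or 42 called members in both genotypes under every alternative, and no named value changed sign where it was called. Counts elsewhere moved, and the cause was not tested. The shares of all genes called under the alternatives are not given here, so that these member counts are not set against all genes. DESeq2 called 5 for W330R against WT on day 4 (1 by edgeR), 3 on day 2 (0), 12 and 1 for W330R-R181E against W330R on day 2 and over days 2 to 6 (0 each), 11 for W330R-R181E against WT (3), 12 and 7 from day 2 to day 4 in WT and W330R-R181E (3 and 0), 1 from day 4 to day 6 in WT, and 1 for each change of W330R-R181E minus W330R. Without the filter the same comparisons gave 4, 1, 7, 11, 7 and 4 for W330R against WT on days 4 and 2, W330R-R181E against W330R on day 2 and against WT, and day 4 against day 2 in WT and W330R-R181E. Library totals only gave 1 on day 2 (W330R against WT), and RLE gave 1 from day 2 to day 4 in W330R-R181E. Library totals only moved the median of all genes by up to 0.164 (day 6 against undifferentiated, W330R). With only the conditions compared, counts were 0 (W330R against WT on day 4), 8 (undifferentiated), 0 (W330R-R181E against WT), 0 (day 4 against day 2 in WT), 0 and 16 (day 6 against day 2 in W330R-R181E and WT). With only days 2 to 6, chosen after seeing the data, they were 0 (day 4), 1 (W330R-R181E against WT), 1 (day 4 against day 2 in WT) and 12 (day 6 against day 2 in W330R-R181E).

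The labels do not say that replicate numbers pair the libraries. Deviations of same-numbered libraries correlated above 0.1 in 26 of 55 pairs of conditions (26 of 36 on days 2 to 6, from -0.0213 to 0.534). A replicate block gave 8 and 17 for W330R against WT over 4 stages and on day 4, 9 for W330R-R181E against W330R on day 2, 17 for W330R-R181E against WT, and 14 and 12 from day 2 to day 4 in WT and W330R-R181E.

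Leaving out 1 library gave 1 to 5 (W330R against WT, 4 stages), 0 to 1 (day 2), 0 to 6 (day 4), 0 to 5 and 0 to 22 (W330R-R181E against W330R, days 2 to 6 and day 2), 0 to 30 and 0 to 2 (W330R-R181E against WT, days 2 to 6 and day 2), 0 to 2 (change from day 2 to day 4, W330R-R181E minus W330R), 0 to 14, 16 to 40 and 0 to 30 (day 4 against day 2 in WT, W330R and W330R-R181E), 9 to 38 and 2 to 39 (day 6 against day 2 in WT and W330R-R181E) and 14 to 38 (day 6 against undifferentiated in W330R). A lone remaining library is then assumed to vary like the others.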
